A study of Mus musculus with 6 samples.

Results

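Glucose use in stimulated B cells was described through 38 genes chosen by name: the carriers and hexokinases that bring glucose into the cell and trap it, the enzymes of glycolysis, lactate dehydrogenase and the monocarboxylate carriers that export lactate, the pyruvate dehydrogenase gate, and the pentose phosphate pathway. All 38 symbols were among the 23420 gene symbols of the count table. RNA was sequenced from splenic B cells, purified with an isolation kit, of 3 Ahr+/+ and 3 Ahr-/- mice on the C57Bl/6J background. The Ahr-/- mice lack the aryl hydrocarbon receptor (AhR), a ligand-activated transcription factor, in every tissue (strain B6.129-Ahr tm1Bra/J), so the deletion was not limited to B cells. Cells of both genotypes were stimulated for 8 h with 10 µg/ml anti-IgM, which crosslinks the B-cell receptor, and IL-4 at 20 ng/ml, and received 250 nM of the AhR ligand FICZ for the final 4 h. No unstimulated or FICZ-free libraries were analysed here. Mice were older than 8 weeks and matched for age and sex. The comparison asks how the transcripts of glucose metabolism differ between activated B cells with and without AhR.

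Glycolysis splits glucose into pyruvate and yields ATP in the cytosol. Pyruvate is either reduced to lactate, which leaves the cell through monocarboxylate carriers, or enters mitochondria through pyruvate dehydrogenase, whose activity is held down by the pyruvate dehydrogenase kinases. The pentose phosphate pathway branches off before the phosphofructokinase step and supplies NADPH and ribose for nucleotides. Lymphocytes raise glucose uptake, glycolysis and lactate release when they are activated through their antigen receptor.

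Library depth ranged from 22095096 to 53648787 counts. Ahr had 12681, 12892 and 13953 normalized counts in Ahr+/+ B cells and 8856, 8949 and 9717 in Ahr-/- B cells, lower in every Ahr-/- library but far from 0. Whole-gene counts do not show whether reads cover the deleted sequence. Cyp1a1, the classical AhR target, had raw counts of 5120, 5404 and 4743 in Ahr+/+ libraries and of 4, 4 and 7 in Ahr-/- libraries. Of the marker lists of other cells that a B-cell isolate could hold, 9 of 10 plasmacytoid dendritic cell genes were higher in Ahr-/- libraries, with a summed level of 93.5 to 108 CPM (counts relative to the TMM-scaled library size) in Ahr+/+ and 124 to 152 CPM in Ahr-/- libraries. In Ahr+/+ libraries Bst2 made up 50.2 to 60.8 CPM of this sum and Pacsin1 30.5 to 35.2 CPM. In Ahr-/- libraries they made up 51.4 to 78.0 CPM and 43.1 to 45.3 CPM. Bst2 was the gene of the list that was not called (edgeR adjusted p = 0.23). Siglech, the defining gene of that list, had 52.3 to 60.6 normalized counts in Ahr+/+ and 236 to 300 in Ahr-/- libraries. The neutrophil list lay between 2.22 and 3.77 CPM in Ahr+/+ and between 1.33 and 6.90 CPM in Ahr-/- libraries. The macrophage list summed to 21.5, 28.7 and 24.6 CPM in Ahr+/+ and 14.8, 21.4 and 7.69 CPM in Ahr-/- libraries, lower in each Ahr-/- library, and Emr1 made up 16.5 to 17.2 CPM of it in Ahr+/+ and 0.925 to 1.65 CPM in Ahr-/- libraries. Over all 6 libraries the T-cell list lay between 160 and 183 CPM. Lck alone made up 152 to 175 CPM of the T-cell sum, and the T-cell genes Cd3e and Cd28 fell (edgeR log2 fold changes -1.26 and -0.86). B-cell markers summed to 3076 to 3308 CPM in Ahr+/+ and 3625 to 3850 CPM in Ahr-/- libraries, and 6 of 10 of them were higher and 1, Ebf1, was lower. The B-cell receptor component Cd79a was higher and the transcription factor gene Ebf1 lower (edgeR log2 fold changes 0.26 and -0.24). Called genes numbered 4 higher and 1 lower of 8 for conventional dendritic cells, 2 higher and 1 lower of 10 for macrophages, 1 lower of 8 for neutrophils, 2 lower of 10 for T cells and 2 higher of 7 for NK cells. Over all genes 17.9% were called, and the shares for neutrophils (12.5%), T cells (20%) and NK cells (28.6%) rest on 1 or 2 genes each. The macrophage gene Emr1 fell, from 633 to 662 normalized counts in Ahr+/+ to 35.6 to 63.5 in Ahr-/- libraries, while Cd14 and Ccr2 were higher (edgeR log2 fold changes 1.64 and 0.91) and Csf1r was not called. The other 9 macrophage genes summed to 4.47, 11.4 and 8.15 CPM in Ahr+/+ and 13.2, 19.8 and 6.76 CPM in Ahr-/- libraries, with overlap. Transcripts of the erythroid genes Hbb-b1 and Hba-a1 were listed at 0. The part of these differences in the results was not tested, and in a bulk sample fewer cells of a type and less RNA per cell cannot be told apart.

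Most genes of glucose metabolism were expressed at nearly the same level in Ahr+/+ and Ahr-/- B cells, and the changes were small. A gene was called changed at an adjusted p under 0.05 by edgeR's quasi-likelihood test over all 13682 genes with at least 10 counts. Of the 38 genes, 37 were tested and 10 were called (27.0%), against 17.9% of all genes tested. The 6 that fell in Ahr-/- B cells were Slc2a1, Gpi1, Pfkp, Gapdh, Pdk3 and G6pdx, or 16.2% against 8.13% of all genes. This count was 3 without Ahr+/+ replicate 2 and 3 without Ahr-/- replicate 1, and with library size alone in place of TMM 4 genes were lower and 6 higher. The 4 that rose were Slc2a3, Eno2, Pgls and Rpia, or 10.8% against 9.79% of all genes. No overlap between genotypes was found for 17 of the 37 genes (45.9%), against 33.5% of all genes. The median log2 fold change (Ahr-/- over Ahr+/+) was 0.05, against 0.00 over all genes, with 14 genes below 0 and 23 above. The median absolute log2 fold change was 0.124, against 0.115 over all genes, so small changes were not particular to this set. An absolute value under 0.2 was found for 26 of the 37 genes. Only Eno2, and Ldhb near the counting floor, exceeded 0.5. The p-values measure the spread among 3 mice per genotype.

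The summed level of the genes, which Eno1 entered with 0 counts, did not separate the genotypes. It was 7516, 7901 and 7554 CPM in Ahr+/+ libraries and 7532, 7806 and 7465 CPM in Ahr-/- libraries, a log2 ratio of the means of -0.01 (two-sided exact permutation test, p = 0.6). The values of the genotypes overlapped, and replicate 2 was the highest library in each genotype. By role, only the glucose entry sums among those of the 6 roles did not overlap between genotypes, at 194, 200.1 and 198 CPM in Ahr+/+ and 202, 207 and 206 CPM in Ahr-/- libraries (exact permutation p = 0.1, which 3 against 3 cannot go below). The sums of the upper glycolysis genes were 2055, 2213 and 2105 CPM in Ahr+/+ and 1976, 2060 and 1985 CPM in Ahr-/- libraries, and those of the pentose phosphate genes 1265, 1321 and 1259 CPM and 1330, 1358 and 1315 CPM. The means were lower in Ahr-/- libraries for the first and higher for the second, and the groups overlapped in both (exact permutation test, p = 0.2 for both).

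**Figure D1:**
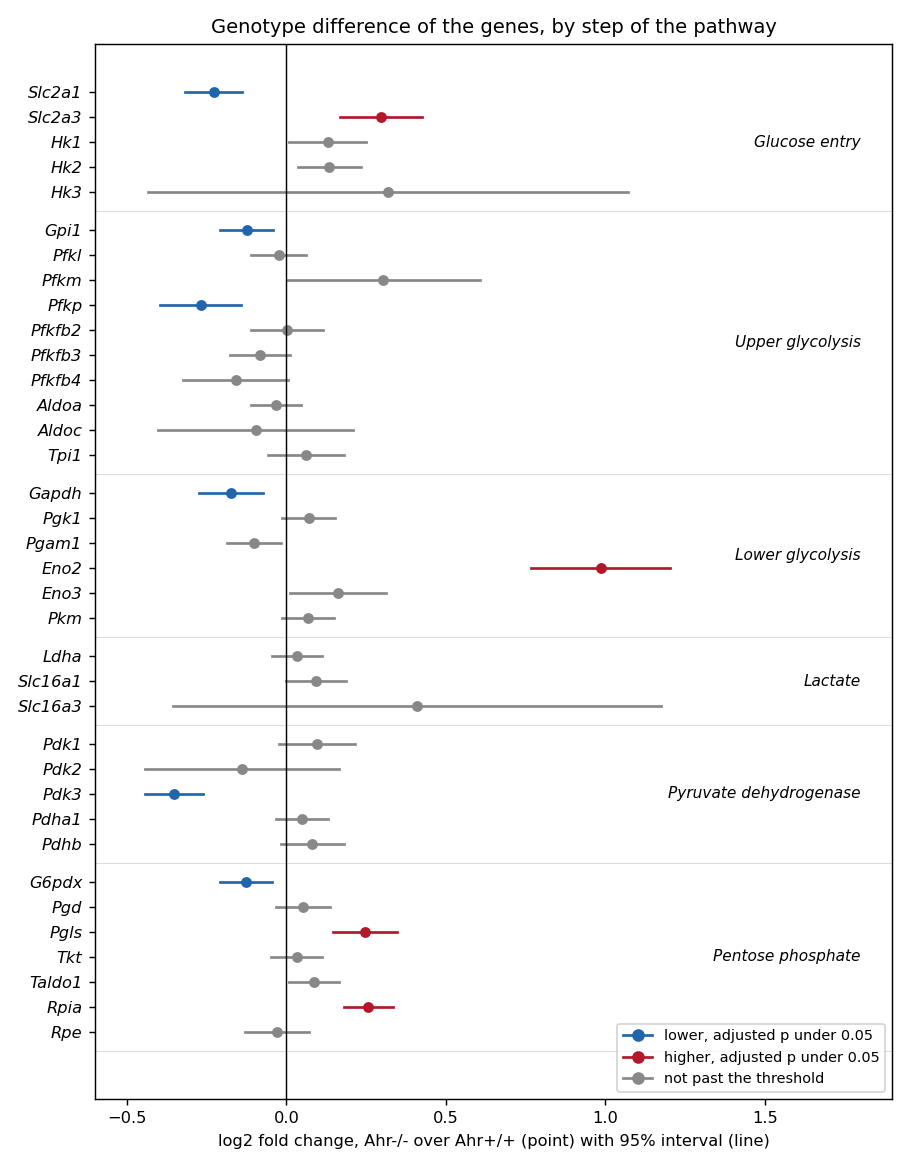
Log2 fold change (Ahr-/- over Ahr+/+, horizontal axis) of the tested genes other than Ldhb, grouped by role, with 95% confidence intervals from edgeR and colour marking genes called at an adjusted p under 0.05. Most points lie close to 0, and Eno2 stands alone at 0.99.

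Per kilobase of exon, the level of these transcripts ranged widely and followed the same broad order in both genotypes. Exon length here joined the exons of all annotated isoforms of a gene. It was 3310 bases for Ldha and 3710 for Aldoa, against 1766 and 1511 bases in 1 annotated transcript of each. The order between genes therefore depends on the length used. In Ahr+/+ B cells the highest means were those of Ldha at 312, Aldoa at 251, Pkm at 208, Gapdh at 185, Pgk1 at 184 and Pgam1 at 163 CPM per kilobase. Gapdh and Pgk1 did not differ beyond their spread in Ahr+/+ libraries. The pentose phosphate gene Tkt followed at 89.2. Transcripts under 1 CPM per kilobase in Ahr+/+ B cells included Hk3 at 0.279, Slc16a3 at 0.0577 and Ldhb at 0.0295.

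**Figure D2:**
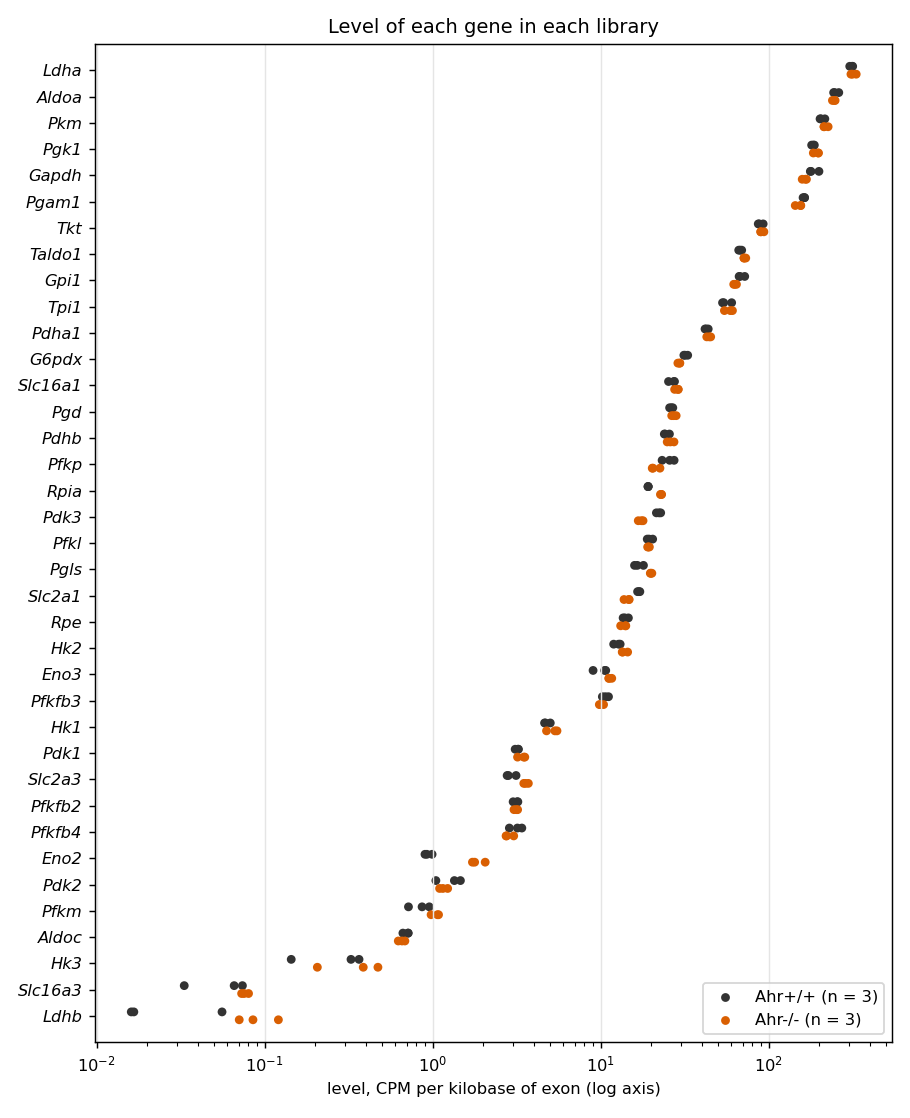
Level of each gene in each library (horizontal log axis, CPM per kilobase of exon), ordered by mean, with Ahr+/+ libraries in black and Ahr-/- libraries in orange. The genotypes lie almost on top of each other for most genes, and Eno2 is visibly shifted, from 0.940 to 1.85.

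Glucose enters B cells through carriers of the SLC2 family and is trapped by hexokinases. In Ahr-/- B cells the transcript of Slc2a1, the main carrier of activated lymphocytes, fell while that of Slc2a3, a high-affinity carrier, rose. Slc2a1 (chromosome 4, 119108711 to 119137983 of GRCm38, plus strand) had 2309, 2276 and 2238 normalized counts in Ahr+/+ libraries and 1986, 1858 and 1993 in Ahr-/- libraries. Every Ahr-/- library was below every Ahr+/+ library. The means were 2274 ± 35.3 and 1946 ± 75.9 (SD, n = 3 mice each), a log2 fold change of -0.23 (standard error 0.041, edgeR adjusted p = 0.0017). Slc2a3 (chromosome 6, 122727809 to 122801640, minus strand) had 874, 787 and 774 normalized counts in Ahr+/+ libraries and 1035, 972 and 995 in Ahr-/- libraries. The Ahr-/- libraries were all higher, with no overlap. The log2 fold change was 0.30 (standard error 0.059, edgeR adjusted p = 0.0036). Per kilobase of exon, Slc2a1 remained the more abundant of the pair in both genotypes.

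The 250 bases upstream of the RefSeq start of Slc2a1 are shown (GRCm38.p6, chr4:119108495-119108744, plus strand) because this gene fell and its promoter holds both core motifs searched here. Capitals mark GCGTG, the core of the element that AhR and its partner ARNT bind, which reads CACGC where it lies on the other strand, and ACGTG, the core of the hypoxia element.
Slc2a1: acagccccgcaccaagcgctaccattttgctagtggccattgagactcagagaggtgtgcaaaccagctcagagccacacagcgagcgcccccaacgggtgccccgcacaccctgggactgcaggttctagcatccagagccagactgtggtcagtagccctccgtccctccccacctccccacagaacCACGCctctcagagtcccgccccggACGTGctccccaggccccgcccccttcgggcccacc
The GCGTG match lay 61 to 57 bases and the ACGTG match 36 to 32 bases before the start. A match is a description of the sequence and does not show binding.

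The hexokinases did not pass the test. Hk2, the inducible hexokinase of dividing cells and the most abundant of the family per kilobase, had 2746, 2938 and 3001 normalized counts in Ahr+/+ and 3106, 3325 and 3087 in Ahr-/- libraries. The Ahr-/- libraries were all above the Ahr+/+ libraries, but the log2 fold change of 0.13 missed the threshold (standard error 0.046, edgeR adjusted p = 0.063). Hk1, the widely expressed hexokinase, had the same log2 fold change of 0.13 with overlapping values (standard error 0.055, edgeR adjusted p = 0.14). Hk3, a hexokinase of myeloid cells, was scarce, with 20.4, 46.3 and 51.7 normalized counts in Ahr+/+ and 66.9, 54.7 and 29.2 in Ahr-/- libraries. Its lowest libraries, Ahr+/+ replicate 1 and Ahr-/- replicate 3, were also the lowest of their genotype for the summed macrophage and neutrophil lists, at 21.5 and 7.69 CPM and at 2.22 and 1.33 CPM; the part of these cells in the Hk3 counts was not tested.

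Among the 10 genes of upper glycolysis, 2 fell, none rose and 8 did not pass the test (20% called, near the 17.9% of all genes). Pfkp, the platelet-type subunit of phosphofructokinase, which catalyses the committed step of glycolysis, had the larger change of the pair that fell. Pfkp (chromosome 13, 6579768 to 6648777, minus strand) had 11971, 13280 and 14109 normalized counts in Ahr+/+ libraries and 10457, 11623 and 10564 in Ahr-/- libraries. All Ahr-/- values were below all Ahr+/+ values, though Ahr-/- replicate 2 came close to Ahr+/+ replicate 1. The log2 fold change was -0.27 (standard error 0.058, edgeR adjusted p = 0.0063), with a 95% confidence interval from -0.40 to -0.14. Gpi1, the isomerase that interconverts glucose and fructose phosphates (chromosome 7, 34201330 to 34230336, minus strand), had 16562, 17882 and 16746 normalized counts in Ahr+/+ and 15615, 15967 and 15384 in Ahr-/- libraries. The groups did not overlap and the change was slight, at -0.12 on the log2 scale (standard error 0.038, edgeR adjusted p = 0.041). This call was lost in 7 of the 15 alternative analyses at the same threshold.

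The upstream sequence of Pfkp is shown (GRCm38.p6, chr13:6648772-6649021, minus strand) as the gene of this step that fell, with GCGTG in capitals.
Pfkp: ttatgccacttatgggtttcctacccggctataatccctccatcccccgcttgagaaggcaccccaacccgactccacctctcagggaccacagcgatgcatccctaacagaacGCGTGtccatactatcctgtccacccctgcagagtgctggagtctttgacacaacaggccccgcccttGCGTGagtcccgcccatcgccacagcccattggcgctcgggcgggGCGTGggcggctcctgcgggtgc
The 3 matches upstream lay 136 to 132, 68 to 64 and 23 to 19 bases before the start.

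The other subunits of phosphofructokinase did not follow Pfkp. Pfkl, the liver-type subunit, had 4990, 5239 and 4864 normalized counts in Ahr+/+ and 4891, 5008 and 4941 in Ahr-/- libraries. These values overlapped, with a log2 fold change of -0.02 and a 95% confidence interval from -0.11 to 0.06 (edgeR adjusted p = 0.74). Pfkm, the muscle-type subunit, was scarce, at 92.3 to 123 normalized counts in Ahr+/+ and 126 to 139 in Ahr-/- libraries, and its log2 fold change of 0.30 did not pass the test although the groups did not overlap (edgeR adjusted p = 0.17). The bifunctional PFKFB enzymes set the level of the fructose bisphosphate that activates phosphofructokinase. Pfkfb3, the most abundant of them, had 2978, 3240 and 3104 normalized counts in Ahr+/+ and 2858, 3028 and 2905 in Ahr-/- libraries, overlapping between genotypes (log2 fold change -0.08, edgeR adjusted p = 0.22). Pfkfb2 and Pfkfb4 had log2 fold changes of 0.00 and -0.16 (edgeR adjusted p = 0.99 and 0.18). Aldoa, the main aldolase, had 35200, 37321 and 34785 normalized counts in Ahr+/+ and 34214, 35490 and 35119 in Ahr-/- libraries. The genotypes overlapped, and the 95% confidence interval of its log2 fold change ran from -0.11 to 0.04. Aldoc, a minor aldolase, and Tpi1, which interconverts the triose phosphates, were not called either, at log2 fold changes of -0.10 and 0.06 (edgeR adjusted p = 0.71 and 0.52).

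Lower glycolysis held the largest change among the 10 called genes. Eno2, the neuron-type enolase (chromosome 6, 124760053 to 124769673, minus strand), had 180, 163 and 167 normalized counts in Ahr+/+ libraries and 312, 322 and 372 in Ahr-/- libraries. The groups were widely separated, with the lowest Ahr-/- library far above the highest Ahr+/+ library. The mean rose from 170 ± 8.66 to 335.5 ± 32.0 (SD, n = 3 mice each), a log2 fold change of 0.99 (standard error 0.10, edgeR adjusted p = 1.7e-05) with a 95% confidence interval from 0.77 to 1.20. Eno2 nonetheless stayed a minor transcript, rising from 0.940 to 1.85 CPM per kilobase of exon. Eno3, the muscle-type enolase, lay at 10.1 and 11.4 on this scale and did not pass the test. Its normalized counts were 707, 717 and 603 in Ahr+/+ and 779, 751 and 748 in Ahr-/- libraries, higher in all Ahr-/- libraries (log2 fold change 0.16, edgeR adjusted p = 0.14).

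The upstream sequence of Eno2, the called gene that rose most, is shown (GRCm38.p6, chr6:124769674-124769923, minus strand). It holds neither GCGTG nor ACGTG on either strand, so no base is in capitals.
Eno2: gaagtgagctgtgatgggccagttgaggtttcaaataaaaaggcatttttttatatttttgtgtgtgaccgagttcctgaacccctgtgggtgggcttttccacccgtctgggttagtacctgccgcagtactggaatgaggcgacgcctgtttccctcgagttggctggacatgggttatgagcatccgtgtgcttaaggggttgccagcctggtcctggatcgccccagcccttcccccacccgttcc
The absence of these letters concerns this window only. The same window of Gpi1, which fell, also held neither motif, and those of Rpia and Pgls, which rose, each held GCGTG.

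Eno1, the enolase of most tissues, was listed at 0 counts in all 6 libraries and was not tested. In the GRCm38 annotation 85.6% of the Eno1 transcript is at least 99% identical to transcripts of other genes, and the retrogene copy listed as Gm5506 had counts of 41, 36 and 27 in Ahr+/+ and 15, 42 and 36 in Ahr-/- libraries. Of the 3 enolase genes among the 38, only Eno2 and Eno3 therefore had counts. Gapdh, glyceraldehyde phosphate dehydrogenase (chromosome 6, 125161715 to 125166467, minus strand), often used as a reference gene, fell. It had 28402, 31682 and 28156 normalized counts in Ahr+/+ and 25190, 26692 and 26344 in Ahr-/- libraries. The Ahr-/- libraries were all lower, at a log2 fold change of -0.17 (standard error 0.046, edgeR adjusted p = 0.020), and the call was lost without Ahr+/+ replicate 2 (edgeR adjusted p = 0.067) or without Ahr-/- replicate 1. Gapdh shares 88.0% of its transcript at this identity with 25 other annotated genes, 23 of them pseudogenes, so its counts are uncertain to that extent.

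The remaining enzymes of this stretch were not called. Pgam1, phosphoglycerate mutase, had 12223, 12451 and 12483 normalized counts in Ahr+/+ and 11851, 11810 and 10981 in Ahr-/- libraries. The genotypes did not overlap, but the log2 fold change of -0.10 missed the threshold (standard error 0.038, edgeR adjusted p = 0.095). Pkm, the pyruvate kinase gene, had 39440, 41560 and 38926 normalized counts in Ahr+/+ and 41095, 43471 and 41122 in Ahr-/- libraries. These values overlapped (log2 fold change 0.07, edgeR adjusted p = 0.26), as did those of Pgk1, phosphoglycerate kinase (0.07, edgeR adjusted p = 0.25). Of the Pgk1 and Pgam1 transcripts, 68.8% and 43.1% are shared with near-identical copies.

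None of the 4 genes of the lactate step was called, against 17.9% of all genes. Slc16a1 and Ldhb, 2 of the 4, had no overlap between genotypes, against 33.5% of all genes. Ldha, the lactate dehydrogenase subunit of glycolytic cells, was the most abundant of the 37 tested transcripts per kilobase of joined exons. It stood at 312 CPM per kilobase in Ahr+/+ B cells. It had 38696, 40279 and 39949 normalized counts in Ahr+/+ and 40154, 42280 and 39341 in Ahr-/- libraries. The values overlapped, and the log2 fold change of 0.03 had a 95% confidence interval from -0.04 to 0.11 (edgeR adjusted p = 0.58). Ldhb, the subunit of oxidative tissues, was near the floor of 3 counts, at 0.97, 1.01 and 3.37 normalized counts in Ahr+/+ and 5.15, 4.27 and 7.29 in Ahr-/- libraries, and no fold is given. Slc16a1, the main lactate carrier here, had 4683, 4317 and 4647 normalized counts in Ahr+/+ and 4922, 4931 and 4695 in Ahr-/- libraries. All Ahr-/- libraries were slightly higher, without a call (log2 fold change 0.09, edgeR adjusted p = 0.18). Slc16a3, a carrier of strongly glycolytic cells, had between 6.80 and 16.4 normalized counts.

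At the pyruvate dehydrogenase gate, the transcript of a kinase that inhibits the complex fell. Pdk3 (X chromosome, 93764607 to 93832201, minus strand) was the most abundant of the pyruvate dehydrogenase kinases per kilobase. It had 2194, 2244 and 2116 normalized counts in Ahr+/+ libraries and 1723, 1762 and 1650 in Ahr-/- libraries. The groups were tight and well apart. The mean fell from 2185 ± 64.4 to 1712 ± 56.5 (SD, n = 3 mice each), a log2 fold change of -0.35 (standard error 0.042, edgeR adjusted p = 7.5e-05). Pdk1, a kinase gene known as a hypoxia target, had 928, 970 and 965 normalized counts in Ahr+/+ and 1044, 1058 and 958 in Ahr-/- libraries. Its groups overlapped through Ahr-/- replicate 3, and it was not called (log2 fold change 0.10, edgeR adjusted p = 0.27). Pdk2 and the catalytic subunit genes Pdha1 and Pdhb were not called, with log2 fold changes of -0.14, 0.05 and 0.08 (edgeR adjusted p = 0.56, 0.43 and 0.26).

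The upstream sequence of Pdk3, the member with the lowest fitted fold change, is shown (GRCm38.p6, chrX:93832151-93832400, minus strand) with both core motifs in capitals.
Pdk3: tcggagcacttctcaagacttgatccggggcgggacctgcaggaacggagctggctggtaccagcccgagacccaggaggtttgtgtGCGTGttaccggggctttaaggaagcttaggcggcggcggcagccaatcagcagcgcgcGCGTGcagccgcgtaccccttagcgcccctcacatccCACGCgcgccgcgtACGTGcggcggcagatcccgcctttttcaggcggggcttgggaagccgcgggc
GCGTG lay 163 to 159 and 104 to 100 bases before the start and, on the other strand, at 67 to 63, and ACGTG lay at 53 to 49.

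**Figure D3:**
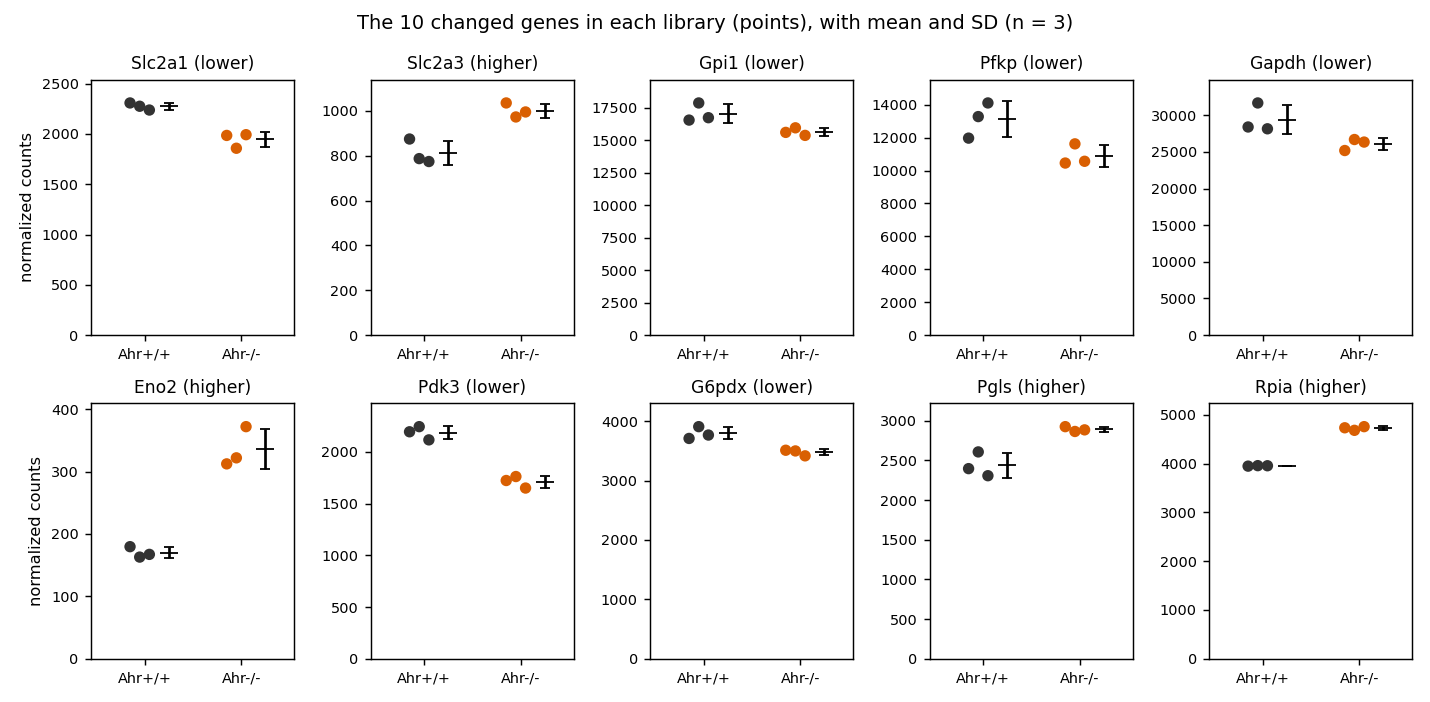
Normalized counts (vertical axes, from 0) of the 10 genes called changed, with a point for each library and a bar for mean ± SD (n = 3 mice). The genotypes do not overlap in any of the 10 panels, and the gap is widest relative to the mean for Eno2.

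In the pentose phosphate pathway 1 gene fell, 2 rose and 4 did not pass the test (42.9% called, against 17.9% of all genes). Rpia, the isomerase that makes ribose phosphate for nucleotide synthesis (chromosome 6, 70765720 to 70792232, minus strand), had 3946, 3956 and 3954 normalized counts in Ahr+/+ libraries and 4732, 4680 and 4755 in Ahr-/- libraries. Its replicates were nearly equal within each genotype and the groups lay far apart. The mean rose from 3952 ± 5.22 to 4722 ± 38.6 (SD, n = 3 mice each), a log2 fold change of 0.26 (standard error 0.035, edgeR adjusted p = 0.00023). Pgls, the lactonase of the oxidative branch (chromosome 8, 71592176 to 71601092, plus strand), had 2397, 2608 and 2308 normalized counts in Ahr+/+ and 2926, 2866 and 2886 in Ahr-/- libraries. All Ahr-/- libraries were higher, at a log2 fold change of 0.25 (standard error 0.046, edgeR adjusted p = 0.0025). Of the Pgls exons, 20.6% of bases overlap Fam129c on the same strand, so reads there could be split or discarded.

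G6pdx, the dehydrogenase that opens the oxidative branch and makes NADPH (X chromosome, 74409483 to 74429194, minus strand), fell slightly. It had 3708, 3907 and 3766 normalized counts in Ahr+/+ and 3510, 3498 and 3416 in Ahr-/- libraries. The groups did not overlap, at a log2 fold change of -0.13 (standard error 0.038, edgeR adjusted p = 0.035), and the call was lost in 7 of the 15 alternative analyses at the same threshold. Taldo1, the transaldolase of the non-oxidative branch, had 5645, 5772 and 5542 normalized counts in Ahr+/+ and 6103, 5959 and 5961 in Ahr-/- libraries. It was higher in all Ahr-/- libraries but not called (log2 fold change 0.09, edgeR adjusted p = 0.13). Pgd, which makes further NADPH, Tkt, the transketolase, and Rpe, an epimerase, had log2 fold changes of 0.05, 0.03 and -0.03 (edgeR adjusted p = 0.41, 0.63 and 0.72).

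How tightly the uncalled genes were held can be read from their intervals. For the 17 uncalled genes with at least 1000 normalized counts in both genotypes, log2 fold changes ran from -0.10 to 0.13 and the outermost bounds of the 95% confidence intervals were -0.19 and 0.25. Of the 10 called genes, 7 kept the call in all 15 alternative analyses at the same threshold: Slc2a1, Slc2a3, Pfkp, Eno2, Pdk3, Pgls and Rpia. Opposite-strand genes overlap 11.5% of the exon bases of Gpi1, 13.6% of G6pdx, 5.58% of Pfkp, 2.99% of Slc2a1 and 1.65% of Gapdh, and the sources used here do not give the strand setting of the counting. The exons of Eno2, Pdk3, Rpia and Slc2a3 overlap no other annotated gene.

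Several steps are served by more than 1 paralog, and the share of each within its family, from counts per kilobase of exon in the same library, does not depend on library scaling. The share of Slc2a1 in the sum of Slc2a1 and Slc2a3 was 84.5, 85.7 and 85.7% in Ahr+/+ libraries and 79.9, 79.8 and 80.5% in Ahr-/- libraries. The groups did not overlap, and the mean was 5.22 percentage points lower in Ahr-/- B cells. The share of Pfkp among the phosphofructokinase subunits was 53.5, 54.7 and 58.0% in Ahr+/+ and 50.2, 52.3 and 50.3% in Ahr-/- libraries, with Pfkl at 42.8 ± 2.38% and 46.5 ± 1.15% (SD, n = 3 mice each). Here too the genotypes did not overlap. The exons joined over all isoforms span 13401 bases for Pfkp and 6675 for Pfkl. A single annotated transcript of each has 4145 and 3730 bases, so the size of these shares depends on the length used. Pdk3 made up 83.2 ± 0.973% of the pyruvate dehydrogenase kinases in Ahr+/+ and 79.2 ± 0.0831% in Ahr-/- libraries, and Pdk1 12.0% and 15.5%. Eno2 made up 8.54 ± 0.778% and 14.0 ± 1.35% of Eno2 and Eno3 together. Without division by exon length the differences grew by over 1.5 times for Eno2 (10.5 percentage points), Pdk1 (6.53) and Pdk3 (-6.71). Among the hexokinases Hk2 made up 71.4 ± 0.782% and 71.3 ± 0.983%, with overlapping values. In 11 of the 22 shares tested over 9 families the genotypes did not overlap, each with an exact permutation p = 0.1, the smallest that 3 mice against 3 allow (two-sided, Benjamini-Hochberg adjusted p = 0.2), so no share could pass a threshold of 0.05. The share of 1 paralog in a family fixes that of the others.

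**Figure D4:**
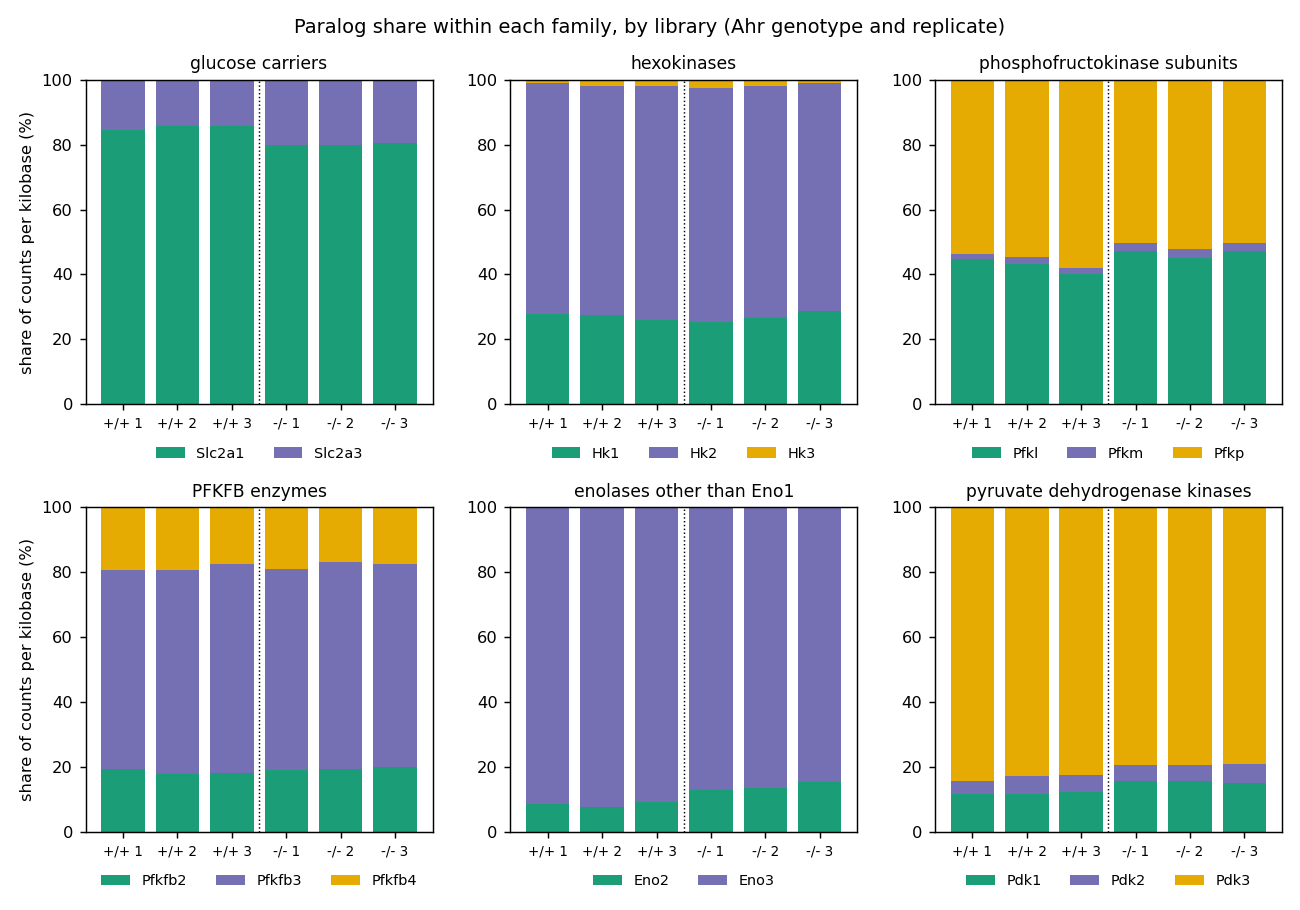
Share of each paralog within its family (vertical axis, % of counts per kilobase of exon) in each library, with Ahr+/+ libraries left and Ahr-/- libraries right of the dotted line. Slc2a3, Pfkl, Eno2 and Pdk1 take a larger share in all 3 Ahr-/- libraries, while the hexokinases overlap.

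A wider list of pathway genes, chosen by function, held 57 further symbols, of which 38 were tested. Of these 3 fell and 4 rose, or 18.4% against 17.9% of all genes. Among those with more than a few counts per library, the largest change was in another hexose carrier, Slc2a6, which sits on lysosomal membranes (chromosome 2, 27021363 to 27027998, minus strand). It had 5918, 6043 and 5532 normalized counts in Ahr+/+ libraries and 1495, 1506 and 1580 in Ahr-/- libraries. The groups were far apart, at a log2 fold change of -1.93 (standard error 0.046, edgeR adjusted p = 2.5e-11). Per kilobase of exon, Slc2a6 stood at 2.80, 2.90 and 2.70 times the level of Slc2a1 in Ahr+/+ libraries and at 0.822, 0.885 and 0.866 times in Ahr-/- libraries. The order of these carriers thus turned between genotypes.

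The upstream sequence of Slc2a6, the most changed carrier, is shown (GRCm38.p6, chr2:27027999-27028248, minus strand) with GCGTG in capitals, read as CACGC on the other strand.
Slc2a6: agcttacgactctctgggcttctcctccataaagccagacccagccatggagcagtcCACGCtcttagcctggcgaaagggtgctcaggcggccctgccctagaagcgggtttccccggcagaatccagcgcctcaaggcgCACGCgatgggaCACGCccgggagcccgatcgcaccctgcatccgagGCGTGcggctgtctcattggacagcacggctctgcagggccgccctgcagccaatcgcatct
It held 4 matches, at 193 to 189, 109 to 105 and 97 to 93 on the other strand and at 62 to 58 bases before the start.

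The other 2 genes of the wider list that fell were Emb and Gapdhs. Emb, which encodes the chaperone embigin of monocarboxylate carriers, had 740, 714 and 694 normalized counts in Ahr+/+ and 702, 540 and 479 in Ahr-/- libraries. Its groups overlapped through Ahr-/- replicate 1 (log2 fold change -0.35, edgeR adjusted p = 0.038). Gapdhs, the sperm form of Gapdh, had only 5, 5 and 7 raw counts in Ahr+/+ and 1, 1 and 0 in Ahr-/- libraries. Those that rose were Pgm2l1, which makes glucose bisphosphate, from 1003 to 1284 mean normalized counts (log2 fold change 0.36, edgeR adjusted p = 7.9e-04), Gpd1l, from 2397 to 2832 (0.24, edgeR adjusted p = 0.0025), Gpd2, from 2075 to 2315 (0.16, edgeR adjusted p = 0.019), and Prps2, from 3341 to 3732 (0.16, edgeR adjusted p = 0.013). Gpd1l and Gpd2 are glycerol phosphate dehydrogenases, the mitochondrial Gpd2 passing cytosolic reducing equivalents to the respiratory chain, and Prps2 activates ribose phosphate for nucleotide synthesis, the step after Rpia. All 4 were higher in every Ahr-/- library. Pgk2, Ldhc, Pdk4 and the gluconeogenic Fbp1 and Fbp2 had at most 1 count in any library.

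Of 12 tested regulators of the pathway, 3 fell and 2 rose (41.7% against 17.9% of all genes). The calls on these and the wider list together numbered 12 of 50, but 5 without Ahr-/- replicate 2. Hif1a, the oxygen-regulated activator of glycolytic genes, had 6342, 6163 and 6444 normalized counts in Ahr+/+ and 4862, 5051 and 4923 in Ahr-/- libraries. It was lower in all Ahr-/- libraries (log2 fold change -0.35, edgeR adjusted p = 2.5e-05). Vhl, which marks HIF proteins for degradation, and Egln1, a prolyl hydroxylase upstream of it, fell by 0.23 and 0.15 on the log2 scale (edgeR adjusted p = 0.016 and 0.047). Egln2 and Egln3, of the same hydroxylase family, rose. Egln3 had 56.3, 44.3 and 61.8 normalized counts in Ahr+/+ and 154, 160 and 162 in Ahr-/- libraries, far apart (log2 fold change 1.56, edgeR adjusted p = 1.1e-05). Egln2 rose by 0.14 on the log2 scale (edgeR adjusted p = 0.047). Myc, which drives glycolytic genes in activated lymphocytes, had 21919, 22008 and 21593 normalized counts in Ahr+/+ and 22913, 23510 and 22699 in Ahr-/- libraries, higher in each Ahr-/- library but not called (log2 fold change 0.08, edgeR adjusted p = 0.13). Arnt, the partner that AhR and HIF share, was not called either (-0.08, edgeR adjusted p = 0.30).

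The core motifs were then counted over the RefSeq promoter windows, from 250 bases before to 50 after the start, on both strands. A window was found for 37 of the 38 genes, all but Slc2a3, and some genes had several. GCGTG was present for 5 of the 6 genes that fell, 2 of the 3 with a window that rose and 18 of the 27 that were not called. It occurred in 59.3% of the 54 windows of the set and in 32.4% of the 32851 windows of all genes. ACGTG was present for 4 of the 6 that fell, 0 of the 3 that rose and 16 of the 27 not called, and in 44.4% of the set's windows against 19.6% of all. The E-box CACGTG, which contains ACGTG and which MYC binds, occurred in 11.1% of the set's windows against 7.15% of all, and in none of the genes called. The windows of the set were richer in G and C, with a median of 60.7% against 52.7%, and the part of base composition in these shares was not tested.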

How the data were processed

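RNA from 3 Ahr+/+ and 3 Ahr-/- splenic B-cell cultures was made into stranded mRNA libraries. The submitters' processing notes name TopHat2, HTSeq, DESeq and the build mm10, while the strand setting and gene annotation are not given in the sources used here. The authors deposited raw counts per gene symbol, which were used, while their normalized values and the fold changes and p-values of their own comparison were not. Genes whose total reached 10 counts were compared by edgeR 4.0.16 in R 4.3.3 (TMM, quasi-likelihood test, prior count 0.125, Benjamini-Hochberg over all 13682 genes, threshold 0.05). The paper's text states no test for these libraries. Normalized counts are counts divided by the TMM-scaled library size, relative to the mean of the libraries. The script was tested on simulated data. Exon lengths and positions came from the GENCODE annotation of GRCm38, near-identical transcripts (at least 99% over at least 100 bases) from BLAST 2.17.0, and promoters from RefSeq.

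Total counts were 40065169, 38543246 and 34402709 in Ahr+/+ and 22095096, 53648787 and 41947441 in Ahr-/- libraries. A floor of 3 counts was used, which covers counting error only. Replicates differed by more than sampling noise (chi-square over degrees of freedom 3.96 to 9.24), so none was a duplicate. The genes and all gene lists were chosen with earlier results of these data known, so nothing here is independent support for them. All 38 genes are accounted for, the called ones and the main isoform of each step with their values, and of the other pathway and regulator lists the called genes. The marker lists are given by counts and sums with a few genes. Myc, Arnt, Lck, Cd28, Ebf1 and the genes with at most 1 count were named after their values were seen. Alternatives were other normalizations (DESeq2 1.42.0 size factors, library size, upper quartile), filters, the DESeq2 Wald test, a robust fit, a prior count of 2, a threshold of 0.01, a replicate block and leaving out each library. Some genes of these lists are not reported here.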

Additional observations from a re-analysis of the deposited data

How the results depend on the processing

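All 10 called genes kept their direction under the alternatives run. Of the uncalled genes, 4 changed sign. With each library left out in turn, the log2 fold change ran from -0.0090 to 0.60 for Hk3, from -0.049 to 0.0054 for Pfkl, from -0.028 to 0.019 for Pfkfb2 and from -0.054 to 0.0011 for Rpe. Pfkl was also at 0.0012 with library size alone, and Pfkfb2 at -0.0034 with DESeq2's size factors and -0.0035 with its Wald test. At an adjusted p under 0.01, edgeR called 1473 genes (690 lower, 783 higher), 7 of the 37 genes of glucose metabolism with 3 lower, and 5 of the 50 other pathway and regulator genes (2 lower, 3 higher) against 12 in the reported fit (6 lower, 6 higher). With 1 library omitted at a time, at the threshold of 0.05, the counts ran from 1664 to 2601 of all genes (756 to 1217 lower, 908 to 1384 higher), from 7 to 10 of the glucose genes (3 to 6 lower, 4 to 5 higher) and from 5 to 13 of the other genes (2 to 7 lower, 3 to 6 higher). The lower glucose genes numbered 3 without Ahr+/+ replicate 2 and 3 without Ahr-/- replicate 1, and the other genes numbered 5 without Ahr-/- replicate 2. Library size alone, which shifts the median of all genes by under 0.1 on the log2 scale, gave 4 lower and 6 higher glucose genes, and upper quartile scaling 4 and 5. Gpi1 and G6pdx each lost the call in 7 of 15 alternatives and Gapdh in 2, while Hk1, Hk2, Pgam1 and Taldo1 gained one in some. Replicate numbers did not pair the libraries, with correlations of same-numbered deviations of -0.123, 0.154 and -0.19. With a replicate block, edgeR called 2303 genes, 10 of the glucose genes and 11 of the other genes. Without division by exon length, the shares of Slc2a1, Pdk3, Pdk1 and Eno2 differed by -7.69, -6.71, 6.53 and 10.5 percentage points. Depth limits Ldhb, Slc16a3 and Hk3, and the causes of these shifts were not tested.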

Other observations

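Within each genotype the highest normalized count fell in replicate 2 more often than in the other replicates. This held for 22 of the 37 tested genes in Ahr+/+ libraries (8 in replicate 1 and 7 in replicate 3) and for 19 of 37 in Ahr-/- libraries (10 in replicate 1 and 8 in replicate 3). The same counts over all tested genes are not given here, so they are not read as particular to this set. The genes of glucose metabolism together took 0.742, 0.783 and 0.751% of all counts in Ahr+/+ libraries and 0.763, 0.787 and 0.750% in Ahr-/- libraries.

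Gm12070, annotated as a near-identical copy of Gapdh, had 197, 241 and 178 raw counts in Ahr+/+ and 111, 252 and 195 in Ahr-/- libraries. The log2 ratio of Slc2a3 to Slc2a1 per kilobase moved from -2.54 to -2.01 and that of Slc2a6 to Slc2a1 from 1.48 to -0.22, while that of Hk2 to Hk1 differed by 0.01.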
